A study of Oryctolagus cuniculus with 24 samples.

Results

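The lysosome is the acidic compartment in which cells break down protein, sugar chains and lipid, and the genes described here encode its hydrolases, its membrane proteins and the proton pump that acidifies it. They are the rows of a rabbit gene count table whose gene name is 1 of 37 named lysosomal genes or starts with ATP6V, the symbol of the vacuolar proton pump (V-ATPase). This gave 57 of the 23428 rows: 35 named genes and 22 ATP6V genes. Of these, 53 passed the filter on low counts and were tested among 13308 genes. The cathepsin CTSL and the mannosidase MAN2B1 have no row under those names.

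The cells were primary keratocytes of the rabbit cornea, the fibroblast-like cells that maintain its stroma, at first passage on collagen-coated glass for 6 days. All cultures began in defined serum-free medium, and each condition has 8 RNA-seq libraries. The serum-free condition stayed in that medium. The TGF-β1 condition, which the labels call myofibroblast, received 5 ng/mL TGF-β1 in serum-free medium from day 1. The FBS condition, which they call fibroblast, received DMEM with 10% fetal bovine serum from day 3, so its base medium and length of exposure differ as well. The labels name no donor animals and do not say that replicates came from separate cultures, so p-values measure only the spread between these libraries, which may be technical.

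Lysosomal hydrolases are soluble enzymes that are tagged with mannose 6-phosphate in the Golgi and carried to the lysosome by receptors. Cathepsins cut proteins, glycosidases trim sugar chains from glycoproteins, glycolipids and glycosaminoglycans, and a set of lipases and lipid carriers handles cholesterol and sphingolipids. The V-ATPase has a membrane sector (V0), through which protons pass, and a cytosolic sector (V1), which hydrolyses ATP. TFEB is a transcription factor that drives many of these genes when it moves into the nucleus, a step controlled by the kinase complex mTORC1 on the lysosomal surface. In the cornea, keratocytes keep up a stroma rich in collagen and keratan sulfate proteoglycans, and inherited defects of several of these hydrolases cloud it.

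Total counts per library ran from 15410285 to 22528261. The first 2 principal components of all genes (61.4% and 25.1% of the variance) separated the conditions, and the third (6.01%) separated replicates 1 to 4 (library numbers 5 to 8) from replicates 5 to 8 (library numbers 9 to 12) in every condition. The sources used here do not say what these sets of numbers stand for. Of 9 keratocyte markers tested, 8 fell and AQP1 rose under TGF-β1 against serum-free medium (33.1% and 31.2% of all genes). Under FBS 8 fell (40.5% of all genes). KERA (keratocan) had a median of 8052 CPM (counts scaled to a common library size) in serum-free medium, 278 under TGF-β1 and 224 under FBS. Of 9 myofibroblast markers tested, all 9 rose under TGF-β1, and 7 rose and 2 fell under FBS (39.5% and 40.5% of all genes). In the same order, POSTN had medians of 24.4, 2313 and 54.5 CPM, but ACTA2 2.71, 202 and 482 CPM. No library repeated another, but FBS replicates 1 and 2, 3 and 4, and 7 and 8 and TGF-β1 replicates 5 and 6, and 7 and 8 were close, with a chi-square per gene of 2.86, 3.43, 3.13, 3.35 and 3.81, so the number of separate units may be under 8 per condition.

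Summed over all 57 genes, the lysosomal level was highest under TGF-β1 and lowest under FBS. The sum ran from 9753 to 14818 CPM in serum-free medium (median 11592), from 15968 to 19856 under TGF-β1 (median 17462) and from 4999 to 9433 under FBS (median 6525). The 3 ranges did not overlap. As a share of all counts in a library, without scaling, the genes took a median of 1.13% in serum-free medium, 1.54% under TGF-β1 and 0.757% under FBS. The share ran from 0.925% to 1.53%, from 1.37% to 1.82% and from 0.592% to 1.06%, so on that scale neighbouring conditions overlapped. The sums are given as a description, with no test, and abundant genes weigh most in them. Median CTSK and CTSB, for example, were 404 and 793 CPM in serum-free medium and 1953 and 1853 under TGF-β1. Of the 53 tested genes, 15 had their highest mean in serum-free medium and 3 under FBS. Markers of other cell types moved as well. Over all genes tested, 31.2% rose and 33.1% fell under TGF-β1, and 39.5% rose and 40.5% fell under FBS. Of 7 corneal endothelial markers, all tested, 4 rose and 2 fell under TGF-β1 and 3 rose and 3 fell under FBS. They summed to 2322 to 2708 CPM in serum-free medium, 4646 to 5827 under TGF-β1 and 1348 to 1517 under FBS. Among them COL8A2 had means of 1008, 2586 and 294 CPM and AQP1, which is also on the keratocyte list, 584, 1568 and 243 CPM, while SLC4A11 had medians of 1.43, 0.806 and 7.34 CPM. Of 11 vascular endothelial markers 5 were tested, of which 1 rose and 3 fell under TGF-β1 and 5 fell under FBS. The 11 summed to 432 to 575, 292 to 364 and 78.1 to 95.7 CPM. Most of this was KDR (means of 305, 72.9 and 13.5 CPM) and ERG (195, 236 and 59.9 CPM). CDH5 and EMCN had means of 13.1 and 16.3 CPM in serum-free medium, while TEK, VWF and PECAM1 had medians under 1 CPM in every condition. The part of such cells in the lysosomal levels was not tested.

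**Figure D1:**
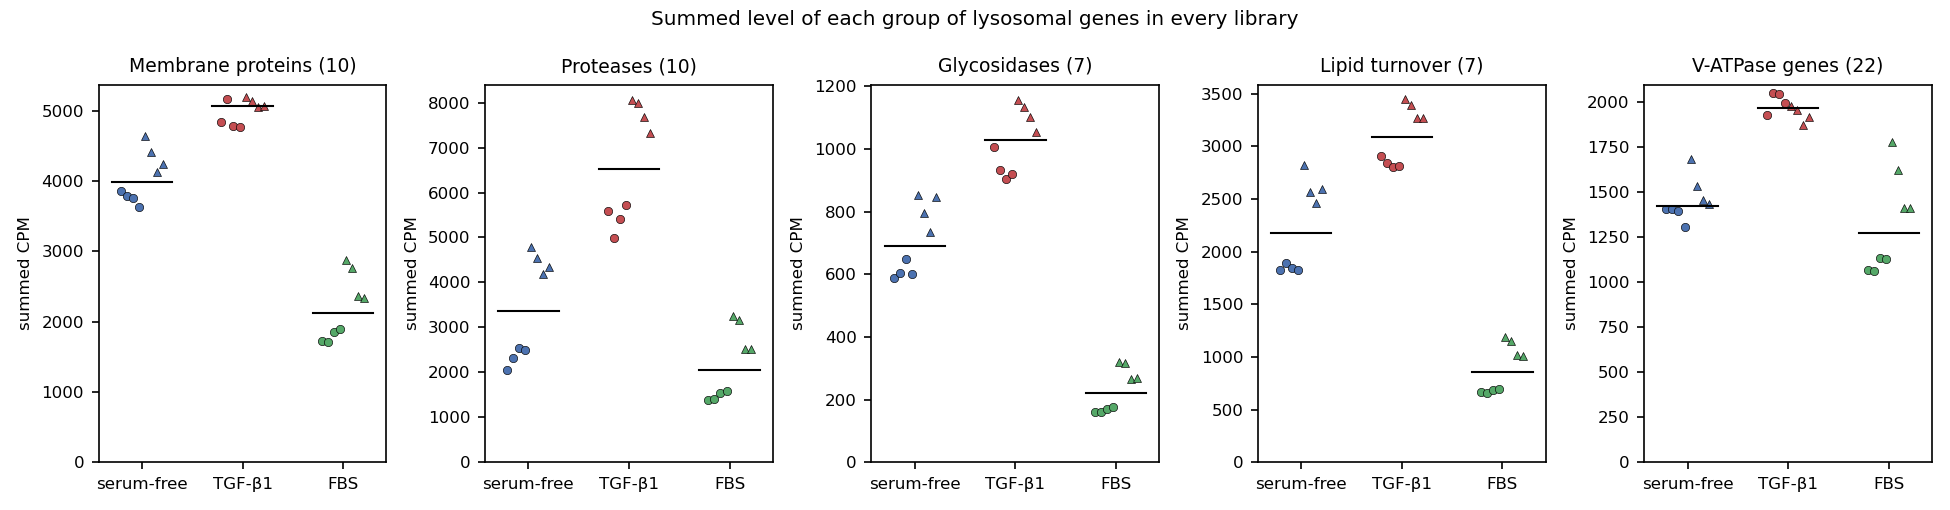
Summed CPM of each group of lysosomal genes in every library (vertical axes from 0; circles are replicates 1 to 4, triangles replicates 5 to 8, bars are medians of the 8 libraries). Medians of the hydrolase groups are highest under TGF-β1 and lowest under FBS. Sums in serum-free medium and FBS overlap for the proteases (2065 to 4791 and 1398 to 3262) and the V-ATPase genes (1307 to 1685 and 1061 to 1776). For lipid turnover, serum-free medium (1823 to 2826) and TGF-β1 (2803 to 3446) overlap.

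Under TGF-β1, 29 of the 53 tested lysosomal genes rose against serum-free medium, 9 fell and 15 were not called (edgeR, adjusted p under 0.05 over all genes tested). The background was 64.3% of all genes called, 31.2% higher and 33.1% lower. The median log2 fold change of the lysosomal genes was 0.47, against -0.03 over all genes tested. A call of at least 2-fold went to 13 upward (background 10.9%) and 3 downward (background 15.2%). In 31 of the 53 the 8 libraries of one condition lay wholly on one side of the other's (background 33.9%). Whether the replicate number pairs the libraries was not tested. With it as a block, 34 genes rose and 11 fell. The additional calls were CTSD, CTSZ, CTSA, PSAP and CD63 upward and CTSF and ASAH1 downward.

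Under FBS, 34 of the 53 genes fell against serum-free medium, 12 rose and 7 were not called, with 80.0% of all genes called, 40.5% lower and 39.5% higher. The median log2 fold change was -0.95, against -0.04 over all genes. Of the 53, 25 fell at least 2-fold (background 24.2%) and 6 rose at least 2-fold (background 22.3%). The libraries did not overlap for 35 genes (background 52.9%). Among the 35 named genes 29 fell, while among the 18 tested ATP6V genes 5 fell and 7 rose.

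Set directly against FBS, the TGF-β1 libraries had 43 of 53 genes higher, 2 lower (CD68 and LIPA) and 8 not called, all 8 of them ATP6V genes, with 73.3% of all genes called, 36.9% higher and 36.4% lower. The median log2 difference was 1.19, against 0.01 over all genes. At least 2-fold differences numbered 29 upward (background 18.5%) and 1 downward (background 17.6%). The libraries did not overlap for 37 genes (background 46.2%). The 3 comparisons share their libraries, so none is independent of the others.

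Which genes count as higher depends in part on the scaling of library sizes. Without TMM scaling the median of all genes moved to -0.17 for TGF-β1 against serum-free medium, to 0.21 for FBS against serum-free medium and to -0.39 for TGF-β1 against FBS. The medians of the lysosomal genes were then 0.33, -0.73 and 0.81. For TGF-β1 against FBS the split became 36 higher and 7 lower in place of 43 and 2, and that over all genes became 3131 higher and 6819 lower in place of 4917 and 4840.

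**Figure D2:**
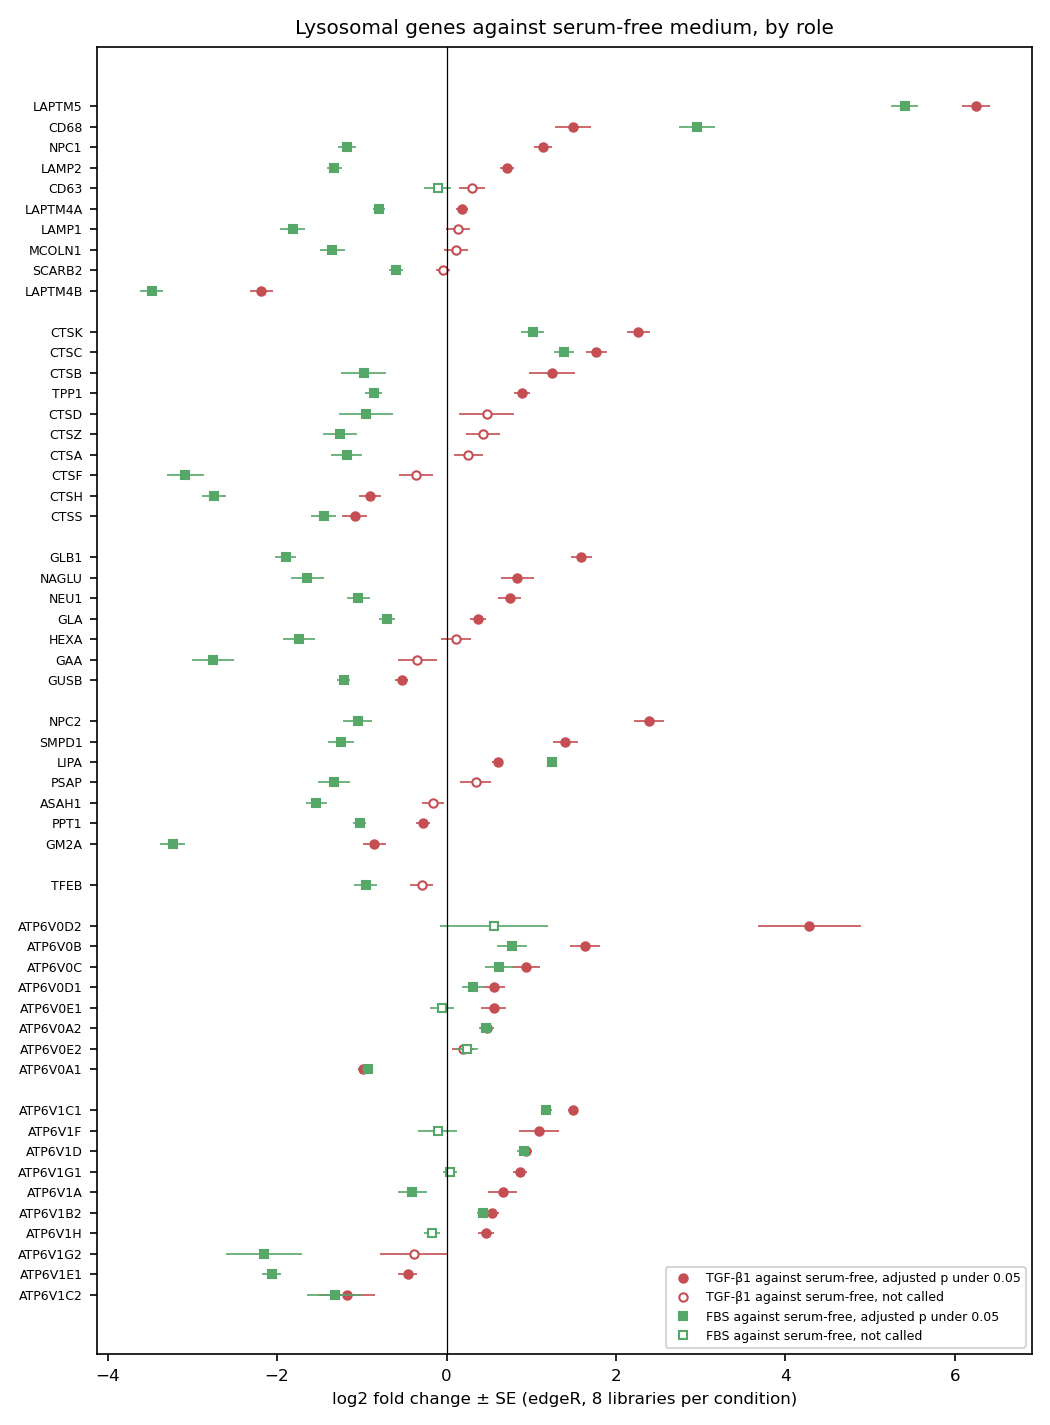
Log2 fold change against serum-free medium (horizontal axis, with SE bars) for the 53 tested genes by role (membrane proteins, proteases, glycosidases, lipid turnover, TFEB, V0, V1), under TGF-β1 as circles and FBS as squares. Filled symbols have an adjusted p under 0.05, and most hydrolases lie right of 0 under TGF-β1 and left of it under FBS, while many V-ATPase genes lie on the same side with both.

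Of the 53 tested genes, 35 had their highest mean under TGF-β1, 15 in serum-free medium and 3 under FBS. Over all genes tested, the highest mean was under TGF-β1 for 23.9%, in serum-free medium for 37.1% and under FBS for 39.0%. The 3 genes with their highest mean in FBS were CD68, LIPA and ATP6V0E2.

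Among the 10 membrane proteins, 5 rose under TGF-β1 and 1 fell (background 31.2% and 33.1%), with a median log2 fold change of 0.24. Calls in either direction went to 60% of them, against 64.3% of all genes tested. Under FBS 2 rose and 7 fell (background 39.5% and 40.5%), with a median of -0.99. The gene that moved furthest was LAPTM5 (chromosome 13, 135408011 to 135431080, plus strand in the deposited annotation, its build not given in the sources used here). It encodes a lysosomal transmembrane protein best known from blood cells, where it limits antigen receptor levels. LAPTM5 stood at 2.60, 3.77 and 6.27 CPM in the lowest, median and highest serum-free library, at 243, 313 and 360 under TGF-β1 and at 137, 171 and 201 under FBS. The serum-free libraries held 600 LAPTM5 reads in all, the TGF-β1 libraries 38113 and the FBS libraries 29715. The log2 fold change was 6.24 (SE 0.16, adjusted p = 6.36e-21) under TGF-β1, which is 75.8-fold, and 5.41 (SE 0.16, adjusted p = 1.24e-20) under FBS, which is 42.4-fold. All TGF-β1 libraries also lay above all FBS libraries, by 0.84 (SE 0.13, adjusted p = 1.68e-06).

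The other LAPTM genes moved differently. LAPTM4B, a relative of LAPTM5 that sits in endosomes and lysosomes and binds ceramide, ran from 364 to 491 CPM in serum-free medium (median 431), from 80.7 to 120 under TGF-β1 (median 94.9) and from 26.3 to 50.1 under FBS (median 39.3). Its ranges were apart in all 3 conditions, and it fell by 2.18 on the log2 scale (SE 0.13, adjusted p = 9.87e-14) under TGF-β1 and by 3.48 (SE 0.14, adjusted p = 5.83e-18) under FBS. LAPTM4A, the remaining member of the family, had a median of 426 CPM in serum-free medium, 477 under TGF-β1 and 249 under FBS. It fell by 0.80 (SE 0.07) under FBS. Its rise under TGF-β1 was 0.18 (adjusted p = 0.033), with overlapping libraries. That call was lost without serum-free replicate 4, 6, 7 or 8 or TGF-β1 replicate 1 or 2 (adjusted p from 0.0504 to 0.0831) and without TMM scaling (log2 difference 0.04).

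Per length, on the deposited FPKM scale, the family was reordered between conditions. The median ratio of LAPTM5 to LAPTM4B was 0.00865 in serum-free medium, 3.02 under TGF-β1 and 4.18 under FBS. That of LAPTM4A to LAPTM4B was 1.47, 7.51 and 9.65. Neither ratio in serum-free medium overlapped with that in the treated conditions.

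**Figure D3:**
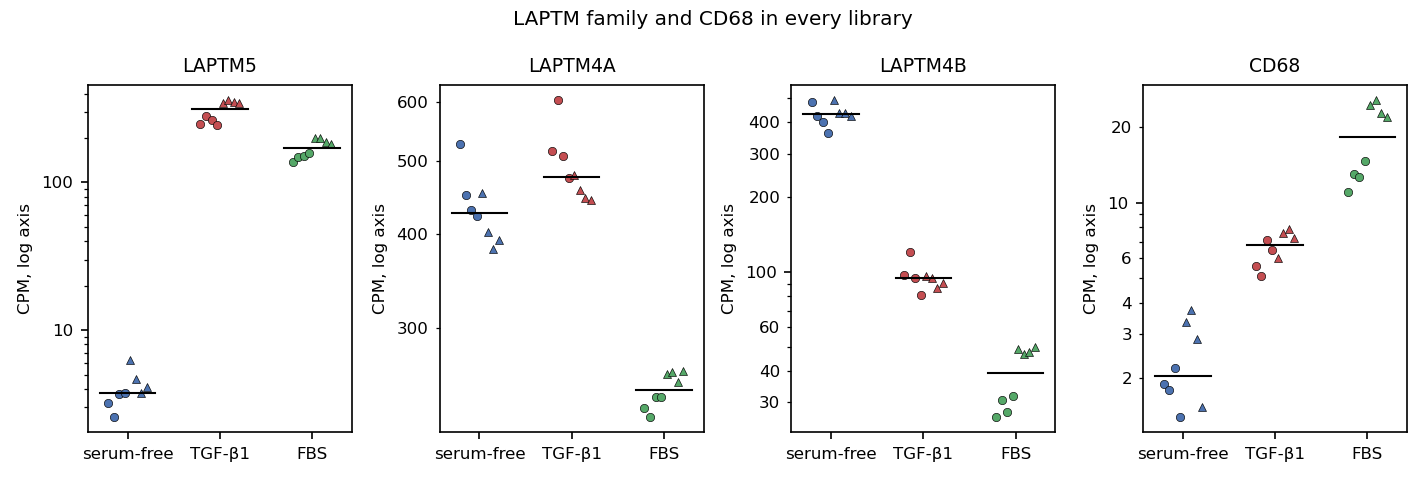
CPM (log axis) of LAPTM5, LAPTM4A, LAPTM4B and CD68 in every library, with circles for replicates 1 to 4, triangles for replicates 5 to 8 and bars at the medians. LAPTM5 and CD68 lie lowest in serum-free medium (medians 3.77 and 2.04 CPM), whereas LAPTM4B lies highest there (431 CPM).

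CD68, a heavily glycosylated lysosomal membrane protein used as a macrophage marker, was the only membrane protein of the 10 with its highest level in FBS. It ran from 1.40 to 3.75 CPM in serum-free medium (median 2.04), from 5.10 to 7.89 under TGF-β1 (median 6.81) and from 11.1 to 25.6 under FBS (median 18.3). The ranges did not overlap, and the log2 fold change was 1.49 (SE 0.21, adjusted p = 1.07e-06) under TGF-β1 and 2.95 (SE 0.22, adjusted p = 1.65e-12) under FBS.

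LAPTM5 and CD68 are also expressed by leukocytes, so a list of 21 other leukocyte and macrophage genes in the table was read beside them. Only 6 of the 21 had enough counts to be tested. Of these, 1 rose and 1 fell under TGF-β1 (background 31.2% and 33.1%), and 3 rose and 1 fell under FBS (background 39.5% and 40.5%). The 3 were LCP1 (mean of 22.8 CPM in serum-free medium and 51.5 under FBS), CORO1A (0.174 and 5.18) and MRC1 (0.127 and 2.86), the last chosen after its values were seen. HCLS1 fell with both treatments, from a mean of 31.1 CPM in serum-free medium to 7.38 under TGF-β1 and 1.64 under FBS. The summed level of the list ran from 46.5 to 81.6 CPM in serum-free medium, from 34.2 to 54.7 under TGF-β1 and from 55.6 to 70.7 under FBS, and was mostly LCP1 and HCLS1. Some genes of the list were at or near 0 in every condition: PTPRC (CD45) had a median of 0.137 CPM in serum-free medium, 0 under TGF-β1 and 0.0766 under FBS. In the same order, CSF1R had medians of 0.624, 0.865 and 0.469 CPM and CD74 of 0.969, 0.0683 and 0.114 CPM. SPI1, CD53 and C1QC had a median of 0 throughout, with 3, 5 and 8 reads over all 24 libraries. Of 14 lymphocyte genes in the table none was tested, and CD79B, MS4A1, CD3G and IKZF1 had 0 reads. The part of such cells in the CD68 and LAPTM5 levels was not tested. In bulk RNA, fewer cells of a type and less RNA per cell cannot be told apart.

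The structural membrane proteins of the lysosome were abundant in every condition. LAMP1 and LAMP2 line the inner face of the lysosomal membrane, and LAMP2 also serves as a receptor in chaperone-mediated autophagy. LAMP1 ran from 876 to 1395 CPM in serum-free medium (median 1056), from 1011 to 1381 under TGF-β1 (median 1170) and from 220 to 426 under FBS (median 292). It fell by 1.82 (SE 0.15, adjusted p = 1.49e-11) under FBS, and its difference under TGF-β1 was 0.13 (SE 0.14, adjusted p = 0.423). That difference was -0.01 without TMM scaling and 0.23 in replicates 1 to 4 alone (adjusted p = 0.00151). LAMP2 ran from 643 to 832 CPM, from 998 to 1413 and from 243 to 342 in the same order, with no overlap. It rose by 0.72 (SE 0.09, adjusted p = 5.57e-08) under TGF-β1 and fell by 1.33 (SE 0.09, adjusted p = 1.7e-13) under FBS.

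NPC1, the membrane protein that exports cholesterol from the lysosome, ran from 101 to 152 CPM in serum-free medium, from 241 to 319 under TGF-β1 and from 47.0 to 72 under FBS. It rose by 1.13 (SE 0.11, adjusted p = 8.03e-10) under TGF-β1 and fell by 1.17 (SE 0.11, adjusted p = 1.79e-10) under FBS. The calcium channel MCOLN1 fell by 1.35 (SE 0.15, adjusted p = 4.11e-09) under FBS, from a median of 88.7 to 33.8 CPM. Under TGF-β1 its median was 96.9 CPM and its difference 0.11 (adjusted p = 0.523), which was 0.27 in replicates 1 to 4 (adjusted p = 0.004) and -0.0028 in replicates 5 to 8.

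CD63, a tetraspanin of lysosomes and secreted vesicles, had the highest median FPKM of the 57 genes in all 3 conditions: 1090 in serum-free medium, 1413 under TGF-β1 and 945 under FBS. Its difference was 0.30 under TGF-β1 (adjusted p = 0.0954, and 0.0146 with the replicate block) and -0.11 under FBS (adjusted p = 0.54). The FBS difference was -0.37 in replicates 1 to 4 alone (adjusted p = 0.00355), 0.09 in replicates 5 to 8 alone (adjusted p = 0.602) and -0.39 without FBS replicates 5 and 6 (adjusted p = 0.00336). Between the treatments it was 0.41 higher under TGF-β1 (adjusted p = 0.0227). That call was lost without FBS replicate 1 (adjusted p = 0.0549) or 2 (0.0543), without TMM scaling (log2 difference 0.02) and in replicates 5 to 8 alone (log2 difference 0.11).

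SCARB2, the receptor that carries glucocerebrosidase to the lysosome, fell by 0.59 (SE 0.08, adjusted p = 4.14e-07) under FBS. Under TGF-β1 its difference was -0.04 (adjusted p = 0.687) over all libraries, but 0.17 in replicates 1 to 4 and -0.21 in replicates 5 to 8 (adjusted p = 0.0219 and 0.0372). The difference between the sets had an adjusted p of 0.0148. Without serum-free replicate 7 the difference over all other libraries was 0.01. Between the treatments SCARB2 was 0.55 higher under TGF-β1 (adjusted p = 1.65e-06), a call that was lost without TMM scaling (0.15, adjusted p = 0.15).

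All 10 proteases were higher under TGF-β1 than under FBS (background 36.9%), with a median log2 difference of 1.56. Of these, CTSC and CTSS turned to -0.02 and -0.03 without TMM scaling. Against serum-free medium 4 rose and 2 fell under TGF-β1 (background 31.2% and 33.1%), with a median of 0.45. The share called either way was 60%, against 64.3% of all genes tested. Under FBS 2 rose and 8 fell (background 39.5% and 40.5%), with a median of -1.08. CTSK and CTSC were the proteases that rose with both treatments. CTSK (chromosome 13, 41346272 to 41360274, plus strand) encodes cathepsin K, a strong collagenase best known from bone-resorbing osteoclasts. It ran from 329 to 566 CPM in serum-free medium (median 404), from 1877 to 2190 under TGF-β1 (median 1953) and from 602 to 1128 under FBS (median 807). With no overlap between conditions, the log2 fold change was 2.26 (SE 0.14, adjusted p = 1.52e-13) under TGF-β1 and 1.02 (SE 0.13, adjusted p = 1.36e-07) under FBS. Per length CTSK ranked 9th of the 57 genes in serum-free medium (median 214 FPKM) and 2nd under TGF-β1 (1041 FPKM) and FBS (428 FPKM). CTSC, which activates the serine proteases of leukocyte granules, was far lower, with medians of 5.62, 20.1 and 15.1 CPM in serum-free medium, TGF-β1 and FBS. It rose by 1.77 (SE 0.12, adjusted p = 1.03e-12) and by 1.39 (SE 0.12, adjusted p = 3.77e-11).

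Osteoclast markers were read beside CTSK, since osteoclasts express it strongly. Of 12 in the table, 7 were tested. Of these, 4 rose and 2 fell under TGF-β1 (background 31.2% and 33.1%), and 3 rose and 3 fell under FBS (background 39.5% and 40.5%). ITGB3, CKB and OSTM1 were among those that rose under TGF-β1. The genes that fell there were TNFRSF11A, the receptor RANK (means of 69.7, 13.3 and 4.11 CPM in the 3 conditions), and NFATC1 (49.4, 35.0 and 7.06 CPM), and both fell under FBS too. The summed level ran from 178 to 222 CPM in serum-free medium, from 648 to 920 under TGF-β1 and from 1267 to 2069 under FBS, under the treatments most of it from CKB (means of 61.8, 622 and 1510 CPM), a creatine kinase that many tissues express. ACP5, CALCR, OCSTAMP and DCSTAMP had 2, 8, 11 and 6 reads over all libraries.

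CTSB and CTSD, the broad-acting cysteine and aspartic cathepsins, were the most abundant proteases in serum-free medium. CTSB ran from 479 to 1108 CPM there (median 793), from 1144 to 2585 under TGF-β1 (median 1853) and from 223 to 641 under FBS (median 380). It rose by 1.24 (SE 0.27, adjusted p = 0.000291) under TGF-β1 and fell by 0.98 (SE 0.27, adjusted p = 0.00186) under FBS. CTSD ran from 440 to 1766, from 851 to 2108 and from 283 to 987 CPM. It fell by 0.95 (SE 0.32, adjusted p = 0.00923) under FBS. Under TGF-β1 its difference was 0.47 (SE 0.32, adjusted p = 0.201), and 0.58 with the replicate block (adjusted p = 1.92e-05).

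The wide ranges of CTSB and CTSD follow the sets of replicates. Mean CTSD was 568 CPM in serum-free replicates 1 to 4 and 1575 in replicates 5 to 8, 1006 and 1968 under TGF-β1, and 311 and 798 under FBS. Within the sets the CTSD difference under TGF-β1 was 0.83 (adjusted p = 4.16e-06) in replicates 1 to 4 and 0.33 (adjusted p = 0.0443) in replicates 5 to 8. CTSZ and CTSA are exopeptidases. The CTSZ difference under TGF-β1 was 0.43 with an adjusted p of 0.0628, and 5.23e-05 with the replicate block. That for CTSA was 0.26, with 0.202 and 0.00407. In replicates 1 to 4 alone CTSA differed by 0.36 (adjusted p = 0.000295). The CTSZ call was also gained when any one of 7 libraries was left out, namely serum-free replicates 5, 6 and 8, TGF-β1 replicates 1 to 3 and FBS replicate 5 (adjusted p from 0.0352 to 0.0496).

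CTSF, CTSH and CTSS did not rise with either treatment. CTSF, a cysteine cathepsin, fell by 3.08 (SE 0.22, adjusted p = 9.6e-13) under FBS, from a median of 268 to 29.2 CPM. Its median under TGF-β1 was 215 CPM, a difference of -0.36 (adjusted p = 0.123, and 0.00889 with the replicate block). CTSH, an aminopeptidase, ran from 138 to 219 CPM in serum-free medium, from 82.3 to 112 under TGF-β1 and from 18.8 to 34.8 under FBS, and fell by 0.90 (SE 0.13) and 2.75 (SE 0.14). CTSS, which trims the invariant chain in antigen-presenting cells, fell by 1.08 (SE 0.15) and 1.45 (SE 0.15), from a median of 24.0 to 12.2 and 8.80 CPM. Between the treatments CTSS was 0.37 higher under TGF-β1 (adjusted p = 0.0272). This was 0.91 in replicates 1 to 4 but -0.11 in replicates 5 to 8 and -0.03 without TMM scaling. It was lost without TGF-β1 replicate 1 or 3 or any one of FBS replicates 1 to 4 (adjusted p from 0.0543 to 0.063).

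TPP1, a tripeptidyl peptidase deficient in a childhood neuronal storage disease, rose by 0.89 (SE 0.10, adjusted p = 1.16e-08) under TGF-β1 and fell by 0.86 (SE 0.10, adjusted p = 9.64e-09) under FBS, with ranges of 120 to 178, 244 to 325 and 67.7 to 105 CPM. A row listed only by number, LOC100008830, is described in the deposited table as closest to procathepsin L and lies outside the 57. It rose by 0.87 (SE 0.24, adjusted p = 0.00252) under TGF-β1, from a median of 200 to 381 CPM, and was at 190 CPM under FBS (difference 0.08, adjusted p = 0.759).

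**Figure D4:**
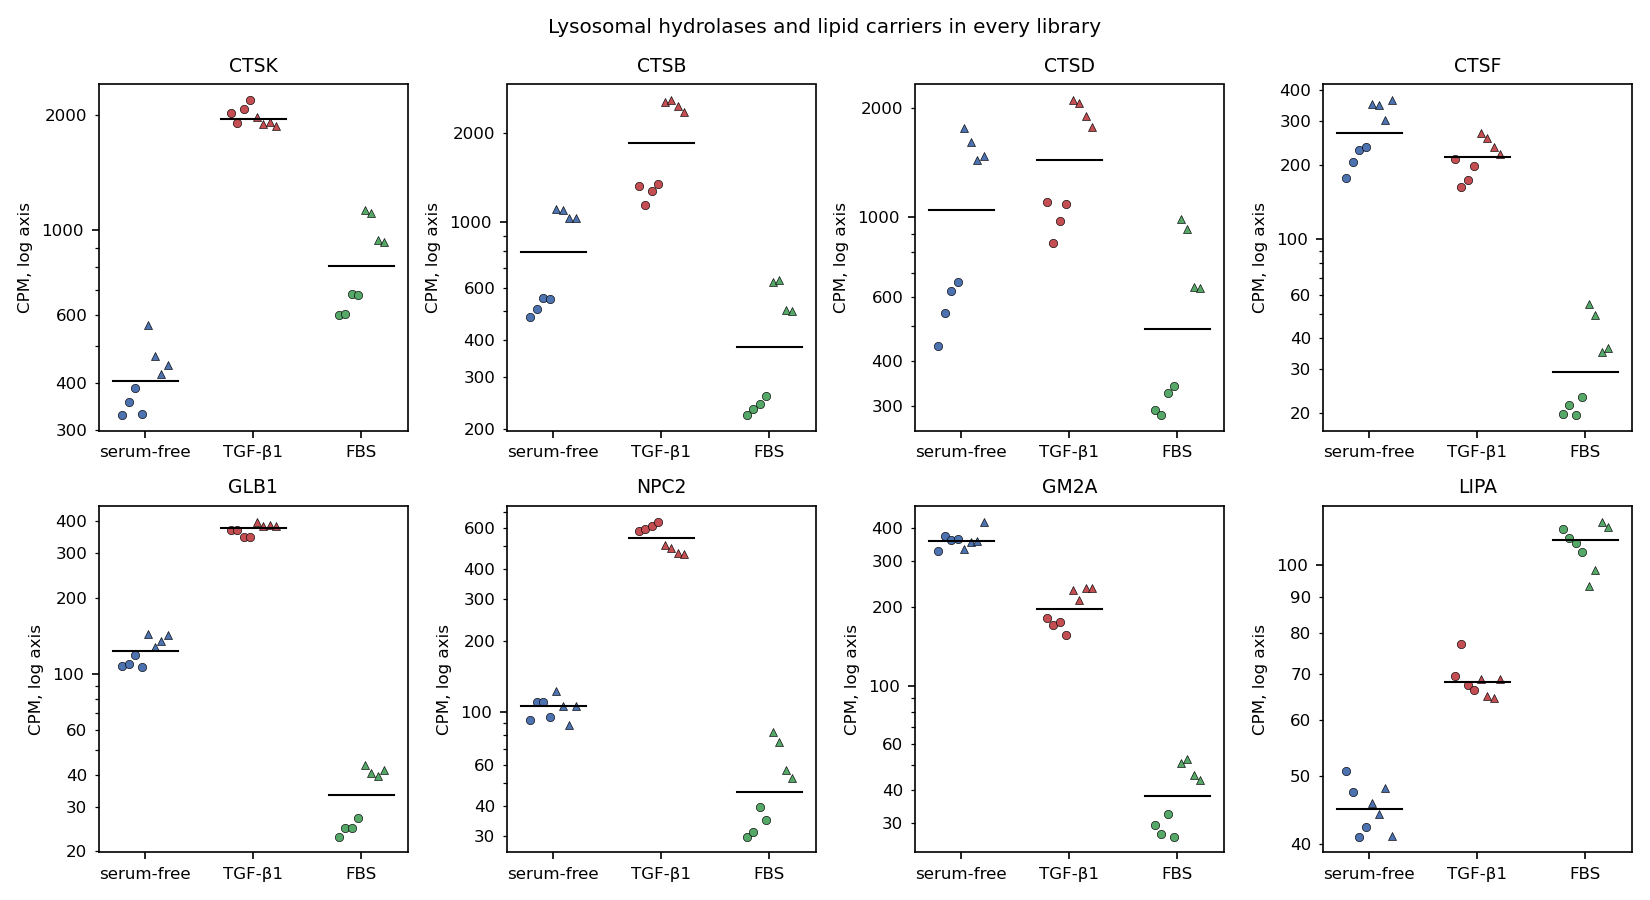
CPM (log axis) of 8 hydrolase and lipid carrier genes in every library, with circles for replicates 1 to 4, triangles for replicates 5 to 8 and bars at the medians. CTSB and CTSD split by replicate set within each condition, GLB1 and NPC2 lie highest under TGF-β1 (medians 377 and 544 CPM) and lowest under FBS (33.4 and 46.1), GM2A lies highest in serum-free medium and LIPA in FBS.

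The 7 glycosidases all fell under FBS (median log2 fold change -1.64), where 40.5% of all genes fell. All were higher under TGF-β1 than under FBS (median 1.85), as were 36.9% of all genes. Under TGF-β1 4 rose, 1 fell and 2 were not called (median 0.37), where 31.2% of all genes rose and 33.1% fell. GLB1 (chromosome 14, 19971116 to 20030366, minus strand) encodes the β-galactosidase that removes galactose from keratan sulfate and gangliosides. It ran from 107 to 143 CPM in serum-free medium (median 123), from 347 to 398 under TGF-β1 (median 377) and from 22.9 to 43.9 under FBS (median 33.4), with no overlap. It rose by 1.59 (SE 0.13, adjusted p = 2.2e-11) under TGF-β1 and fell by 1.90 (SE 0.13, adjusted p = 2.74e-13) under FBS, so the treatments differed by 3.49 (SE 0.14, adjusted p = 5.96e-18), or 11.2-fold.

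NAGLU, which cleaves heparan sulfate, rose by 0.84 (SE 0.19, adjusted p = 0.000451) under TGF-β1 and fell by 1.64 (SE 0.20, adjusted p = 2.41e-08) under FBS, with ranges of 43.2 to 66.0, 74.6 to 110 and 8.60 to 26.6 CPM. NEU1, the lysosomal sialidase, rose by 0.75 (SE 0.13) and fell by 1.04 (SE 0.14), with medians of 32.6, 54.1 and 14.7 CPM. GLA, the α-galactosidase missing in Fabry disease, rose by 0.37 (SE 0.09) and fell by 0.70 (SE 0.09), from a median of 14.4 to 19.2 and 8.91 CPM. For these 3 genes the libraries of the conditions did not overlap.

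HEXA, 1 chain of the β-hexosaminidase that acts on gangliosides and keratan sulfate, had a median of 362 CPM in serum-free medium, 413 under TGF-β1 and 107 under FBS. It fell by 1.74 (SE 0.19, adjusted p = 3.25e-09) under FBS, and its difference under TGF-β1 was 0.11 (adjusted p = 0.61), and 0.23 in replicates 1 to 4 alone (adjusted p = 0.00365). GUSB, the β-glucuronidase, was the glycosidase that fell with both treatments, by 0.53 (SE 0.08, adjusted p = 1.3e-06) and 1.21 (SE 0.08, adjusted p = 1.03e-13), from a median of 86.2 to 62.2 and 36.5 CPM. GAA, the glucosidase that degrades lysosomal glycogen, fell by 2.76 (SE 0.25, adjusted p = 1.14e-10) under FBS, from a median of 13.1 to 1.98 CPM, and differed by -0.34 under TGF-β1 (adjusted p = 0.185). Its row covers 1074 bases of an unplaced scaffold, so these values may count only part of the transcript. The row LOC103346838, which RefSeq names MAN2B1, is outside the 57. It had medians of 22, 26.1 and 10.4 CPM and fell by 1.03 (SE 0.14, adjusted p = 1.71e-07) under FBS.

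The 7 genes of lipid and sphingolipid turnover moved in both directions. Under TGF-β1 3 rose, 2 fell and 2 were not called (median 0.34), where 31.2% of all genes rose and 33.1% fell. Under FBS 6 fell and 1 rose (median -1.25), where 40.5% of all genes fell and 39.5% rose. NPC2 (chromosome 20, 30598274 to 30608086, plus strand) encodes the soluble carrier that hands cholesterol to NPC1. It ran from 87.9 to 123 CPM in serum-free medium (median 106), from 462 to 635 under TGF-β1 (median 544) and from 29.8 to 82.4 under FBS (median 46.1), with no overlap. It rose by 2.39 (SE 0.17, adjusted p = 4.71e-12) under TGF-β1 and fell by 1.05 (SE 0.17, adjusted p = 2.88e-06) under FBS. The treatments differed by 3.44 (SE 0.18), which was 4.15 in replicates 1 to 4 and 2.85 in replicates 5 to 8. SMPD1, the acid sphingomyelinase, rose by 1.40 (SE 0.15, adjusted p = 6.81e-09) and fell by 1.25 (SE 0.15, adjusted p = 2.39e-08), with ranges of 141 to 188, 359 to 500 and 45 to 101 CPM.

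GM2A and LIPA took other courses. GM2A (chromosome 3, 32805292 to 32818343, plus strand), the activator protein that presents GM2 ganglioside to hexosaminidase A, ran from 328 to 424 CPM in serum-free medium (median 359), from 157 to 238 under TGF-β1 (median 198) and from 26.6 to 52.7 under FBS (median 38.0). It fell by 0.85 (SE 0.13, adjusted p = 3.96e-06) and by 3.23 (SE 0.14, adjusted p = 6.2e-17), with no overlap. LIPA, the acid lipase that frees cholesterol from its esters, ran from 41.0 to 50.8, from 64.6 to 77.2 and from 93.4 to 115 CPM. It rose by 0.60 (SE 0.06, adjusted p = 3.97e-09) under TGF-β1 and by 1.25 (SE 0.06, adjusted p = 7.57e-16) under FBS, and was the only hydrolase of the 57 called lower under TGF-β1 than under FBS (difference -0.64, SE 0.06, adjusted p = 6.51e-10).

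PSAP, the precursor of the saposins that help sphingolipid hydrolases, was the most abundant of the 7, at medians of 1185, 1561 and 464 CPM. It fell by 1.33 (SE 0.19, adjusted p = 3.69e-07) under FBS. Its difference under TGF-β1 was 0.34 (adjusted p = 0.103, 0.000163 with the replicate block and 0.037 without serum-free replicate 5). ASAH1, the acid ceramidase, fell by 1.53 (SE 0.13) under FBS, from a median of 199 to 65.1 CPM, and differed by -0.16 under TGF-β1 (adjusted p = 0.27, and 0.0092 with the replicate block). PPT1, which removes palmitate from proteins, fell by 0.28 (SE 0.08, adjusted p = 0.00292) and 1.02 (SE 0.08, adjusted p = 4.22e-12), with ranges of 111 to 133, 93.3 to 110 and 49.1 to 72.6 CPM. The smaller fall was -0.14 in replicates 1 to 4 alone (adjusted p = 0.0944).

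TFEB itself was a low transcript, at 14.3 to 23.9 CPM in serum-free medium (median 19.0), 14.1 to 19.0 under TGF-β1 (median 15.9) and 6.18 to 14.7 under FBS (median 9.61). It fell by 0.95 (SE 0.14, adjusted p = 4.48e-07) under FBS. Under TGF-β1 its difference was -0.29 (SE 0.13, adjusted p = 0.0604). It was -0.06 in replicates 1 to 4 and -0.51 in replicates 5 to 8 (adjusted p = 0.00391 in the latter), -0.44 without TMM scaling (adjusted p = 0.00638) and -0.28 with the set as a factor (adjusted p = 0.0437). That p fell under the threshold without serum-free replicate 1, TGF-β1 replicate 1, FBS replicate 2 or FBS replicate 5 (0.0275, 0.0434, 0.0378 and 0.0379). TFEB was 0.66 higher under TGF-β1 than under FBS (adjusted p = 0.000102), but only 0.30 in replicates 5 to 8 (adjusted p = 0.0613) and 0.27 without TMM scaling (adjusted p = 0.0818). Transcript levels do not report where the protein is.

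The V-ATPase genes moved in both directions. Of 18 tested, 13 rose and 3 fell under TGF-β1 (median log2 fold change 0.56), where 31.2% of all genes rose and 33.1% fell, and 7 rose and 5 fell under FBS (median 0.14), where 39.5% of all genes rose and 40.5% fell. The share of V-ATPase genes that rose under FBS was thus near the background. Between the treatments 10 were higher under TGF-β1, as were 36.9% of all genes, and 8 were not called (median 0.46). Of the 10, ATP6V1C1 turned to -0.09 without TMM scaling, and the ATP6V0E1 call was lost (0.22, adjusted p = 0.182). Of the 8, ATP6V0A1 was then at -0.45 (adjusted p = 1.42e-06), ATP6V0D1 at -0.14 and ATP6V0C at -0.08. In replicates 5 to 8 alone the calls on ATP6V0E1 (0.21, adjusted p = 0.0769) and ATP6V1G2 (1.45, adjusted p = 0.0816) were lost. With the replicate block 12 were higher. The summed level of the V-ATPase genes was 1307 to 1685 CPM in serum-free medium, 1873 to 2047 under TGF-β1 and 1061 to 1776 under FBS.

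In the V0 sector, 6 of 8 tested genes rose and 1 fell under TGF-β1 (background 31.2% and 33.1%). Under FBS 4 rose and 1 fell (background 39.5% and 40.5%). The ring of proteolipid subunits that carries protons is encoded by ATP6V0B and ATP6V0C. ATP6V0B ran from 38.7 to 80.6 CPM in serum-free medium (median 55.6), from 160 to 195 under TGF-β1 (median 169) and from 62.9 to 148 under FBS (median 88.6). It rose by 1.63 (SE 0.18, adjusted p = 9.12e-09) under TGF-β1 and by 0.77 (SE 0.17, adjusted p = 0.000239) under FBS, where the libraries overlapped. ATP6V0C, with medians of 139, 271 and 200 CPM, rose by 0.94 (SE 0.17, adjusted p = 2.82e-05) and 0.62 (SE 0.17, adjusted p = 0.00153). Between the treatments ATP6V0C differed by 0.31 (adjusted p = 0.0937). This passed with the replicate block (0.00223) and without FBS replicate 5 (0.0103) or 6 (0.0405), while without TMM scaling the difference was -0.08.

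The large a subunit of V0 determines where the pump goes, and its tested isoforms, ATP6V0A1 and ATP6V0A2, moved in opposite directions. ATP6V0A1 ran from 122 to 161 CPM in serum-free medium, from 61.9 to 77.8 under TGF-β1 and from 67.0 to 78.0 under FBS. It fell by 0.98 (SE 0.06, adjusted p = 2.62e-13) and 0.93 (SE 0.06, adjusted p = 2.27e-13), and the treatments differed by -0.05 (adjusted p = 0.468), or by -0.45 without TMM scaling (adjusted p = 1.42e-06). ATP6V0A2 had medians of 58.3, 81.2 and 79.0 CPM and rose by 0.48 (SE 0.08, adjusted p = 1.51e-05) and 0.46 (SE 0.08, adjusted p = 1.39e-05). Per length, the median FPKM ratio of ATP6V0A1 to ATP6V0A2 was 3.01 in serum-free medium (2.58 to 3.25), 1.05 under TGF-β1 (0.953 to 1.26) and 1.13 under FBS (0.975 to 1.30). The kidney isoform ATP6V0A4 had 0 reads in all 24 libraries. TCIRG1, an a subunit gene without the ATP6V symbol, has no row under that name, so its level is not known here.

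The d subunit has a general isoform, ATP6V0D1, and an isoform best known from osteoclasts and kidney, ATP6V0D2. ATP6V0D1 rose by 0.56 (SE 0.13, adjusted p = 0.000443) under TGF-β1, from a median of 122 to 183 CPM. Its rise of 0.31 under FBS (adjusted p = 0.0293) was -0.06 in replicates 1 to 4, and was lost without serum-free replicate 3 (adjusted p = 0.0527), FBS replicate 5 (0.0863) or FBS replicate 6 (0.0794). Between the treatments ATP6V0D1 differed by 0.25 (adjusted p = 0.0779, and 0.0238 with the replicate block), which passed without FBS replicate 5 (0.0104) or 6 (0.0168) and was -0.14 without TMM scaling.

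ATP6V0D2 was close to 0 in serum-free medium, at 0.0999 to 0.976 CPM (82 reads over 8 libraries), and rose under TGF-β1 to 3.12 to 18.7 CPM (1356 reads). The log2 fold change was 4.28 (SE 0.61, adjusted p = 8.77e-07). It was 2.78 in replicates 1 to 4 and 5.03 in replicates 5 to 8, where the TGF-β1 means were 3.92 and 18.1 CPM, and the difference between sets had an adjusted p of 0.0036. Under FBS the level was 0.0384 to 1.75 CPM and the difference 0.56 (adjusted p = 0.419), made up of -2.08 in replicates 1 to 4 (adjusted p = 0.00515) and 1.52 in replicates 5 to 8 (adjusted p = 7.58e-05). Under TGF-β1 the median FPKM ratio of ATP6V0D1 to ATP6V0D2 was still 31.6. ATP6V0E1 rose by 0.56 (SE 0.15, adjusted p = 0.00174) under TGF-β1, from a median of 114 to 170 CPM, and differed by -0.05 under FBS (adjusted p = 0.739). The FBS difference was -0.45 in replicates 1 to 4 (adjusted p = 6.18e-05) and 0.23 in replicates 5 to 8 (adjusted p = 0.0483), and turned positive, up to 0.03, without serum-free replicate 5 or FBS replicate 1, 2 or 3. ATP6V0E2, the other e isoform, had medians of 15.5, 16.7 and 16.6 CPM. Its difference under TGF-β1 was 0.20 (adjusted p = 0.205), made up of 0.55 in replicates 1 to 4 (adjusted p = 0.000561) and -0.19 in replicates 5 to 8 (adjusted p = 0.314).

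In the V1 sector, 7 of 10 tested genes rose and 2 fell under TGF-β1 (background 31.2% and 33.1%). Under FBS 3 rose and 4 fell (background 39.5% and 40.5%). The core of V1 is a ring of A and B subunits. ATP6V1A, the catalytic subunit, rose by 0.66 (SE 0.17, adjusted p = 0.00136) under TGF-β1, from a median of 50.1 to 75.3 CPM. Under FBS it was at a median of 41.4 CPM, a fall of 0.41 (adjusted p = 0.0312). That call was lost without any one of serum-free replicates 1, 2 and 4 or FBS replicates 5 and 6 (adjusted p from 0.0554 to 0.0785), in replicates 5 to 8 alone (0.131) and without TMM scaling (0.444). ATP6V1B2, the general B isoform, rose by 0.54 (SE 0.08, adjusted p = 1.67e-06) and 0.43 (SE 0.08, adjusted p = 2.05e-05). ATP6V1B1, the isoform of kidney and inner ear, had 1 read in all.

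ATP6V1C1, which encodes the subunit that links V1 to V0, rose most in this sector. It ran from 32.9 to 40.7 CPM in serum-free medium (median 37.9), from 93.2 to 116 under TGF-β1 (median 103) and from 81.6 to 88.4 under FBS (median 84.1). The rise was 1.49 (SE 0.06, adjusted p = 3.54e-17) under TGF-β1 and 1.18 (SE 0.06, adjusted p = 8.84e-16) under FBS. The treatments differed by 0.31 (SE 0.06, adjusted p = 3.41e-05), which was -0.09 without TMM scaling. ATP6V1D, in the central stalk, rose by 0.93 (SE 0.08, adjusted p = 8.32e-11) and 0.91 (SE 0.08, adjusted p = 4.76e-11), with medians of 37.2, 72.3 and 70.9 CPM.

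ATP6V1F and ATP6V1G1 rose under TGF-β1 but were not called under FBS. ATP6V1F, a stalk subunit, went from a median of 32.7 to 74.2 CPM under TGF-β1 (1.09, SE 0.24, adjusted p = 0.000256), with overlapping libraries, and was at 26.8 CPM under FBS (-0.10, adjusted p = 0.686, and 0.02 without serum-free replicate 5). ATP6V1G1, part of the outer stalk, ran from 80.6 to 99.6, from 133 to 179 and from 76.6 to 113 CPM and rose by 0.87 (SE 0.08, adjusted p = 8.66e-10) under TGF-β1. Both were higher under TGF-β1 than under FBS, by 1.19 (SE 0.24, adjusted p = 6.53e-05) and 0.82 (SE 0.08, adjusted p = 1.21e-09).

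ATP6V1E1, the partner of the G subunits in the outer stalk, fell instead. It ran from 362 to 481 CPM in serum-free medium (median 412), from 240 to 371 under TGF-β1 (median 297) and from 79.8 to 127 under FBS (median 98.0). It fell by 0.46 (SE 0.11, adjusted p = 0.000567) under TGF-β1 and by 2.06 (SE 0.11, adjusted p = 3.19e-15) under FBS. In serum-free medium ATP6V1E1 had the highest median FPKM of the ATP6V genes (336), and its ratio to ATP6V1A was 16.7 there, 7.64 under TGF-β1 and 4.60 under FBS. ATP6V1C2 and ATP6V1G2, tissue-restricted isoforms with medians under 2 CPM in every condition, both fell under FBS, by 1.32 (SE 0.32) and 2.15 (SE 0.45). Under TGF-β1 ATP6V1C2 fell by 1.18 (SE 0.33), a call that was lost in replicates 5 to 8 alone (adjusted p = 0.0869), and ATP6V1G2 differed by -0.38 (adjusted p = 0.42). Their rows overlap PDIA6 and NFKBIL1 on the other strand, and whether counting used strand is not stated, so these values are uncertain. ATP6V1E2 and ATP6V1G3 had 21 and 5 reads in all and were not tested.

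**Figure D5:**
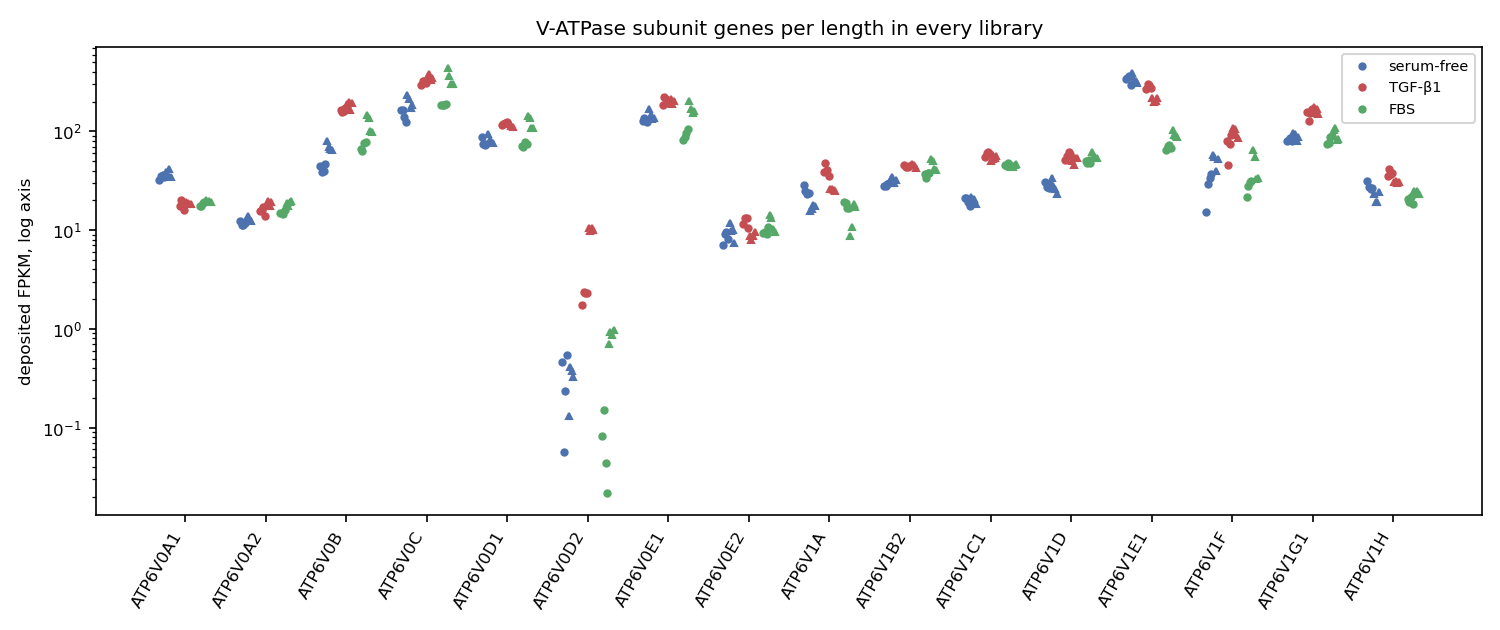
Deposited FPKM (log axis) of 16 V-ATPase genes in every library, with circles for replicates 1 to 4, triangles for replicates 5 to 8, and colours for the conditions. ATP6V0A1 and ATP6V1E1 are highest in serum-free medium, most others are highest under TGF-β1, and ATP6V0D2 lies far below its partners (median ratio to ATP6V0D1 of 1 to 31.6 under TGF-β1).

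The rest of the lysosomal pathway was read from lists of other genes, whose counts stand beside the backgrounds given above: 31.2% of all genes rose and 33.1% fell under TGF-β1, and 39.5% rose and 40.5% fell under FBS. Between the treatments 36.9% of all genes were higher and 36.4% lower under TGF-β1. Of 32 other lysosomal hydrolases tested, 14 rose and 9 fell under TGF-β1 (median 0.13), 6 rose and 23 fell under FBS (median -0.90), and 25 were higher and 3 lower under TGF-β1 than under FBS (median 1.00). MANBA, the β-mannosidase, rose by 2.31 under TGF-β1 and was 3.64 higher there than under FBS. GGH and PRCP, a folate hydrolase and a carboxypeptidase, rose with both treatments, by 3.13 and 2.80 under TGF-β1 and by 2.41 and 2.33 under FBS.

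Of 31 other lysosomal membrane and transport proteins, 11 rose and 14 fell under TGF-β1 and 8 rose and 18 fell under FBS. GPNMB, a glycoprotein of lysosomes and melanosomes, fell by 1.25 and 3.45 from a mean of 623 CPM in serum-free medium. Of 16 V-ATPase partners and assembly factors, 9 rose and 3 fell under TGF-β1 and 4 rose and 9 fell under FBS. Among these accessory genes, ATP6AP1 rose by 0.64 and fell by 0.99, and ATP6AP2 rose by 1.26 under TGF-β1 and differed by 0.07 under FBS (adjusted p = 0.445).

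Mannose 6-phosphate tagging and sorting was read from 18 tested genes, of which 11 rose and 2 fell under TGF-β1 (median 0.38), and 9 rose and 4 fell under FBS (median 0.25). IGF2R, the large mannose 6-phosphate receptor, rose by 2.12 under TGF-β1 and 0.76 under FBS, from a mean of 230 to 998 and 388 CPM. The small receptor M6PR rose by 0.82 and 1.46. GNPTAB, which makes the tag, rose by 0.76 and 1.79, while the alternative sorting receptor SORT1 rose by 0.33 and fell by 2.48.

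Of 27 genes for TFEB relatives and lysosomal mTORC1 signalling, 15 rose and 8 fell under TGF-β1 and 8 rose and 12 fell under FBS. SESN2, a stress-induced brake on mTORC1, rose by 2.80 and 1.57, and FNIP2, a partner of folliculin, by 1.20 and 1.91. Of 45 autophagy genes, 22 rose and 10 fell under TGF-β1 (median 0.24), and 11 rose and 24 fell under FBS (median -0.34). TP53INP2, which takes part in forming autophagosomes, rose by 3.52 under TGF-β1, from a mean of 11.6 to 133 CPM. GABARAPL1 and ULK1, both part of the autophagosome machinery, fell by 2.57 and 1.76 under FBS.

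Levels of the lysosomal genes also differed between the sets of replicates within a condition. The mean of replicates 5 to 8 exceeded that of replicates 1 to 4 for 44 of the 53 genes in serum-free medium (83.0%), 33 under TGF-β1 (62.3%) and 49 under FBS (92.5%), against 51.2%, 47.9% and 50.2% of all genes tested. All of replicates 5 to 8 lay above all of replicates 1 to 4 for 23, 20 and 39 genes (43.4%, 37.7% and 73.6%, against 18.9%, 15.3% and 20.6% of all genes), and below them for 2, 8 and 0 (3.77%, 15.1% and 0%, against 18.2%, 17.7% and 22.6%). The medians within a set kept the signs of the medians over all libraries. For TGF-β1 against serum-free medium they were 0.58 in replicates 1 to 4 and 0.44 in replicates 5 to 8, for FBS against serum-free medium -1.12 and -0.86, and for TGF-β1 against FBS 1.26 and 0.92. The part of the library set in the levels was not tested.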

How the data were processed

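RNA from 24 libraries of rabbit keratocytes was sequenced, 8 per condition. The deposited table gives 1 integer count per gene and library, not normalized, per the file headers and values, with coordinates and gene descriptions. The deposited FPKM values divide those counts by gene length and by scaled library sizes of the authors. The aligner, counting program, strand setting and build were not given in the sources used here. Total counts of 15410285 to 22528261 set the precision.

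The counts went through edgeR 4.0.16 in R 4.3.3: filterByExpr by condition (13308 genes kept), TMM scaling, all 24 libraries in 1 fit with condition as the only factor, quasi-likelihood F-tests for 3 comparisons, Benjamini-Hochberg adjustment over all genes tested, and a call at an adjusted p under 0.05. The standard error is the log2 fold change divided by the square root of F. CPM use TMM sizes, and FPKM served to compare genes per length. The edgeR step was tested on simulated data with independent libraries and no difference between sets of replicates. That check therefore does not show how the step behaves with the sets and close libraries found here. Fold changes are given on the log2 scale unless a fold is written.

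The members and all lists were chosen with earlier results of these data known. Any member could be named. Full values go to members changed at least 2-fold at 5 CPM or more on average in the higher condition, and up to 4 others per role. Up to 4 called genes with the largest change come from each other list. HEXA, LAMP1, TFEB and members whose call depends on 1 library, the block or the set of libraries are named as well. RefSeq names (assembly mOryCun1.1) were used only for rows listed by number.

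Residuals of same-numbered libraries correlated at 0.143 to 0.547 between conditions. These residuals still held the difference between the sets of replicates, and differently numbered libraries were not compared. The correlation therefore does not show that the number pairs the samples. The replicate number served as a block in an alternative fit. The other alternatives were DESeq2 1.42.0 size factors and Wald test, total library size, no low-count filter, limma 3.58.1 on log2(FPKM + 0.1), the library set as a factor, each set alone, only the conditions compared, FBS replicates 5 and 6 left out, and each library left out. No sequence was used here.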

Additional observations from a re-analysis of the deposited data

Results flagged for a closer look

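In 7 of 159 groups of 8 libraries (53 genes in 3 conditions), the highest library stood apart from the nearest. The gap was more than the 95% critical share of the range (0.526). That share is set for 8 independent values from 1 normal distribution. The sets of replicates differed here, so how many groups chance would flag is not known. TGF-β1 replicate 2 was the library in 4 of the 7. It had 602 CPM of LAPTM4A (the next library had 516), 120 CPM of LAPTM4B (next 97.3), 1413 CPM of LAMP2 (next 1162) and 77.2 CPM of LIPA (next 69.5). The others were 832 CPM of LAMP2 in serum-free replicate 1 (next 710), 424 CPM of GM2A in serum-free replicate 8 (next 373) and 19.0 CPM of TFEB in TGF-β1 replicate 1 (next 16.3). Of the calls on these genes, the rise of LAPTM4A under TGF-β1 was lost without TGF-β1 replicate 2 (0.14, adjusted p = 0.0831), and TFEB under TGF-β1 passed without TGF-β1 replicate 1 (-0.33, adjusted p = 0.0434).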

How the results depend on the processing

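Of 151 gene results (129 called and 22 not called), 117 kept their direction and their side of the threshold under all 11 alternatives and 24 fits without 1 library, and 116 of these were called. The 129 are all calls on the tested members. The 22 were listed by hand as uncalled results that the report gives, and other uncalled results were left out. Without 1 library the count of genes that rose ranged from 28 to 31 and of those that fell from 9 to 10 for TGF-β1 against serum-free medium, from 11 to 13 and 33 to 35 for FBS against serum-free medium, and from 41 to 46 and 2 to 2 for TGF-β1 against FBS. Under the other alternatives the ranges were 28 to 39, 9 to 12, 11 to 14, 33 to 38, 36 to 48 and 2 to 7. The 7 came from total library size in place of TMM, and was the only count that moved by over 1.5 times. The replicate block gave 34 and 11, 12 and 34, and 45 and 2. It added 9 calls, all named in the report, and changed no other. DESeq2 size factors and DESeq2's test changed no gene result.

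Some differences changed sign. With total library size, that of TGF-β1 against serum-free medium became -0.014 for LAMP1, -0.042 for MCOLN1 and -0.038 for HEXA, that of FBS against serum-free medium 0.14 for CD63, 0.19 for ATP6V0E1 and 0.13 for ATP6V1F, and that of TGF-β1 against FBS -0.019 for CTSC, -0.028 for CTSS, -0.077 for ATP6V0C, -0.14 for ATP6V0D1 and -0.087 for ATP6V1C1. The scaling moved the medians of all genes in the same directions. Without the filter on low counts that of ATP6V0E1 under FBS became 0.0043. In library numbers 5 to 8 alone it became 0.17 for SCARB2 (TGF-β1 against serum-free medium), -0.059 for ATP6V0D1 and -2.08 for ATP6V0D2 (FBS against serum-free medium). In library numbers 9 to 12 alone it became -0.0028 for MCOLN1 and -0.19 for ATP6V0E2 (TGF-β1 against serum-free medium), 0.085 for CD63 and 0.23 for ATP6V0E1 (FBS against serum-free medium), and -0.11 for CTSS and -0.13 for ATP6V0D1 (TGF-β1 against FBS). With 1 library left out, the SCARB2 difference of TGF-β1 against serum-free medium ranged from -0.082 (without serum-free replicate 4) to 0.013 (without serum-free replicate 7), and those of FBS against serum-free medium from -0.17 (without FBS replicate 5) to 0.031 (without FBS replicate 1) for ATP6V0E1 and from -0.26 (without FBS replicate 5) to 0.016 (without serum-free replicate 5) for ATP6V1F. The cause was not tested. Few reads limit ATP6V0D2, ATP6V1C2 and ATP6V1G2, with 1578, 527 and 244 in all.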

Other observations

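Some of these genes encode partners that act in 1 complex or 1 step. Under TGF-β1 NPC2 rose by 2.39 and NPC1 by 1.13. CTSA protects NEU1 and GLB1 in a complex, and the difference for CTSA was 0.26 (adjusted p = 0.202, and 0.00407 with the replicate block), for NEU1 0.75 and for GLB1 1.59. Under FBS, NPC1 and NPC2 fell by 1.17 and 1.05, and CTSA, NEU1 and GLB1 by 1.18, 1.04 and 1.90. The differences between partners were not tested.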
